A study of Mus musculus with 6 samples.

Results

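Cluster 8 is a small population of cells at the outflow tract (OFT) of the E11.5 mouse heart, named here after *Aldh1a2* and *Tbx18*. Its members are the cells that lay inside the OFT outline and carried the authors' cluster number 8, with no further selection. They numbered 328 of the 6078 cells inside the outline, or 5.40%, and of 364721 segmented cells in all. Of the 13 clusters it was the eighth by number of cells over all embryos, and its place by number within an embryo ran from 5 in the first knockout embryo to 10 in the first control. The name was not checked against expression, because counts per gene are not analysed here, and neither gene has a value below.

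*Aldh1a2* encodes an enzyme that makes retinoic acid from retinaldehyde, and *Tbx18* encodes a T-box transcription factor. In the embryonic heart both genes are known from the epicardium, the outer cell layer that spreads over the heart, and from its precursor tissue. Retinoic acid is a diffusible ligand for nuclear receptors and is known to be needed for the OFT to form and divide. Binding proteins such as those encoded by *Crabp1* and *Crabp2* carry it in the cell, and the enzymes encoded by *Cyp26a1* and *Cyp26b1* degrade it.

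The cells were read by MERFISH, a form of barcoded in situ hybridization that counts single RNA molecules in place, with a panel of 140 genes on 1 section through the medial OFT of each embryo. The 3 control embryos were Ankrd11-nchet, with 1 floxed and 1 wild-type *Ankrd11* allele, and the 3 knockout embryos were Ankrd11-ncko, with both alleles floxed. All 6 carried the Wnt1Cre2 transgene, which deletes floxed sequence in the neural crest, and a RosaYFP reporter, so the controls also lack 1 copy of the gene there. The authors assigned clusters 2, 3 and 7 to the neural crest and not cluster 8, and how many cluster 8 cells had recombined was not measured. *Ankrd11* itself was not on the panel, so the deletion could not be checked in these cells. Each embryo is a sample of its own, with 43458 to 82198 cells per section and 814 to 1292 inside the outline. Per the methods, 2 embryos of each genotype were processed at the same facility and 1 of each at another, and which embryos these were is not given in the sources used here. No cell identifier occurred in more than 1 embryo.

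The first comparison was whether the size of this population differed between the genotypes. Among OFT cells, the control embryos had 4.18%, 5.49% and 4.84% in cluster 8. The knockout embryos had 10.1%, 2.54% and 3.44%. The controls thus lay close together, whereas the first knockout embryo lay above all other embryos and the second and the third lay below all controls. On average this was 4.84% ± 0.654 against 5.37% ± 4.15 (SD, 3 embryos each), and the gap of 0.54 percentage points was below the spread among the knockout embryos (exact 2-sided permutation test, p = 1). After Benjamini-Hochberg adjustment for the 13 clusters tested, this exact p was also 1. With 3 embryos against 3, the smallest p of this test is 0.1. The genotypes overlapped in cluster 8, and 15.4% of the 13 clusters had no overlap.

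Counting error alone was narrower than the gap between the knockout embryos. The 95% Wilson interval of the first knockout embryo, 8.61% to 11.9%, lay above the highest upper bound of the other embryos, 7.09% in the second control. The intervals of the second and the third knockout embryos, 1.74% to 3.69% and 2.39% to 4.93%, overlapped each other and that of the first control, 3.06% to 5.69%. The interval of the third knockout embryo also overlapped those of the second and the third controls, 4.23% to 7.09% and 3.70% to 6.31%. These intervals cover counting error only and not the placing of the outline or of the section.

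Without the first knockout embryo the difference changed direction, to -1.85 percentage points. The 2 remaining knockout embryos then lay below the 3 controls (exact permutation p = 0.1, the smallest that 3 against 2 allows). That order is of shares of all OFT cells, of which cluster 3 made up 36.7% in the third knockout embryo and 4.51% to 14.6% in the controls. Per cell of another cluster, the third knockout embryo lay above all controls for clusters 1, 2, 4 and 10. It lay below them for clusters 3, 6 and 7 and within their range for clusters 5 and 9. The first knockout embryo gave 131 of the 328 cells of cluster 8, or 39.9%, so any value over pooled cells of this cluster leans on it. Within the control pair and the second knockout embryo that share a title stem the difference was -2.30 points, and between the third embryos of both genotypes, whose cell identifiers begin alike, it was -1.40 points. With both sets as blocks the difference was -1.91 points over 5 embryos (exact permutation within blocks, p = 0.167, the smallest that its 6 arrangements allow), since the first knockout embryo shares neither label with a control and drops out. Among the 4 embryos other than the third of each genotype it was 1.50 points. What these shared labels stand for is not given in the sources used here. Counted outside the neural crest clusters 2, 3 and 7, the mean share was 2.09 points higher in the knockout embryos (exact permutation p = 0.8, n = 3 and 3). The first knockout embryo is part of that mean, and this difference was not computed without it. Pooled by genotype, the share was 4.85% of 2947 control OFT cells and 5.91% of 3131 knockout OFT cells.

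**Figure D1:**
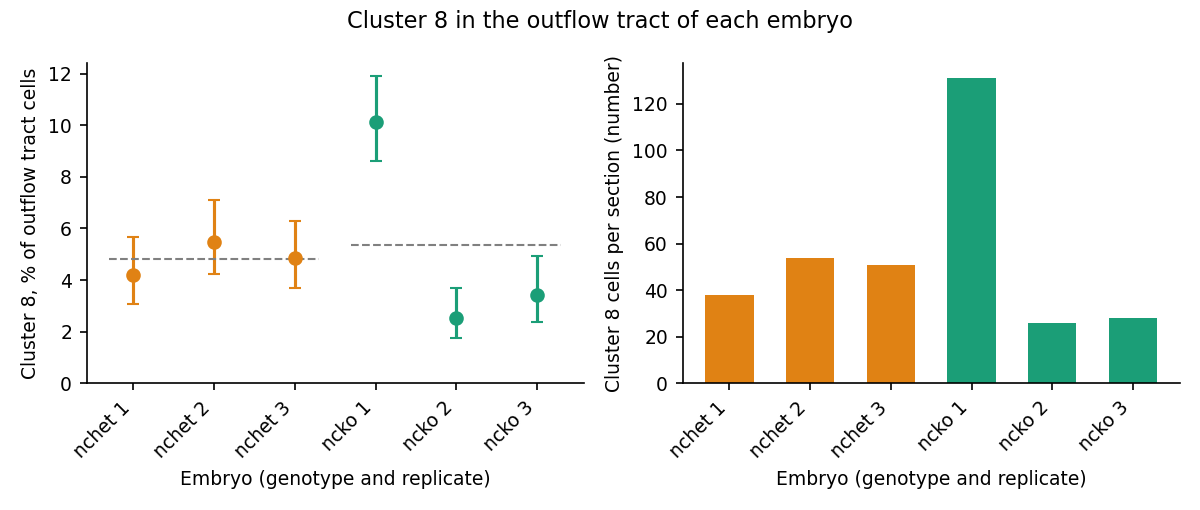
Share of the OFT cells in cluster 8 (left, %, points with 95% Wilson intervals and dashed lines at the mean of 3 embryos) and number of cluster 8 cells per section (right), for each control (orange) and knockout (green) embryo. The first knockout embryo stands at 10.1% and 131 cells, and the other embryos at 2.54% to 5.49% and 26 to 54 cells.

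Counted per section, there were 38, 54 and 51 cluster 8 cells in the controls and 131, 26 and 28 in the knockouts. The order of the embryos by genotype was the same as for the shares, with 47.7 ± 8.50 against 61.7 ± 60.1 cells (SD, n = 3 and 3, exact permutation p = 1). The outline of the first knockout embryo held the most cells, and outside cluster 8 it held 1161, against 786 to 1003 in the other embryos. That embryo also held 71 cells of cluster 11, which no other embryo exceeded 7 of. Outside clusters 8 and 11 it held 1090 OFT cells, against 786 to 999. Set against all cells of the section, cluster 8 numbered 23.3 per 10000 in the first knockout embryo and 3.52 to 10.1 per 10000 in the others. The high share of this embryo was therefore also high against the whole section.

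Across the 6 embryos, the share of cluster 8 was set against the number of OFT cells and against the median number of transcripts per OFT cell, 2 relations in all. With the number of OFT cells, Pearson's r was 0.82 (n = 6, exact permutation p = 0.0653, adjusted p = 0.131) and Spearman's rho was 0.54 (exact permutation p = 0.297, adjusted p = 0.594). Without the first and the third knockout embryos, which lay farthest from the median number of cells, r was -0.10 over 4 embryos. This step also narrowed the range of cell numbers, to 909 to 1054, so it cannot decide whether the relation holds. The number of OFT cells includes the cluster 8 cells themselves, 131 of 1292 in the first knockout embryo. With the median transcripts per cell, r was -0.16 (n = 6, exact permutation p = 0.694, adjusted p = 0.694) and rho was 0.03 (exact permutation p = 1, adjusted p = 1). Without the first and the second controls, which lay farthest from the median here, r was -0.95 over the other 4 embryos, with no test. Among these the first knockout embryo stood apart, at 520 transcripts and a share of 10.1%. The rest had 617 to 636.5 transcripts and shares of 2.54% to 4.84%, so this value leans on 1 embryo.

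A share depends on the size of every other cluster, so cluster 8 was also counted per cell of each of the 9 other clusters that held cells in all embryos. Cluster 1, the largest cluster over all embryos together and in 2 of the 6 embryos, held 212, 168 and 275 cells in the controls and 179, 161 and 70 in the knockout embryos. Per cell of cluster 1 there were 0.179, 0.321 and 0.185 cells of cluster 8 in the controls and 0.732, 0.161 and 0.400 in the knockout embryos. The first and the third knockout embryos lay above all controls and the second below them (log2 difference 0.72, exact permutation p = 0.4, adjusted p = 0.9 over the 9 ratios). With the shared labels as blocks it was 0.15. Cluster 4 gave the steadiest ratio in the controls, at 0.413, 0.394 and 0.398 cells of cluster 8 per cell. In the knockout embryos the same ratio was 0.873, 0.271 and 0.5, each outside the control range (log2 difference 0.29, exact permutation p = 0.7, adjusted p = 0.9). Cluster 4 is named here for its narrow control range, so values outside that range carry little weight. All knockout embryos also lay outside the control range for clusters 1, 2 and 6, and not for clusters 3, 5, 7, 9 and 10.

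Against the neural crest cluster 3 the order differed, since that cluster held 41, 111 and 154 cells in the controls and 162, 171 and 299 in the knockout embryos. There were 0.927, 0.486 and 0.331 cells of cluster 8 per cell of cluster 3 in the controls and 0.809, 0.152 and 0.0936 in the knockout embryos (log2 difference -1.23, exact permutation p = 0.3, adjusted p = 0.9). The second and the third knockout embryos lay below all controls here, and the first within them. Of the 9 ratios, 6 were higher on average in the knockout embryos, and 2 were without the first knockout embryo. That embryo had the highest ratio of all 6 embryos for 6 of the 9 clusters. None of the 9 ratios was without overlap between the genotypes (0% of 9), and the exact permutation p lay between 0.3 and 0.9 for all of them, with n = 3 and 3.

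**Figure D2:**
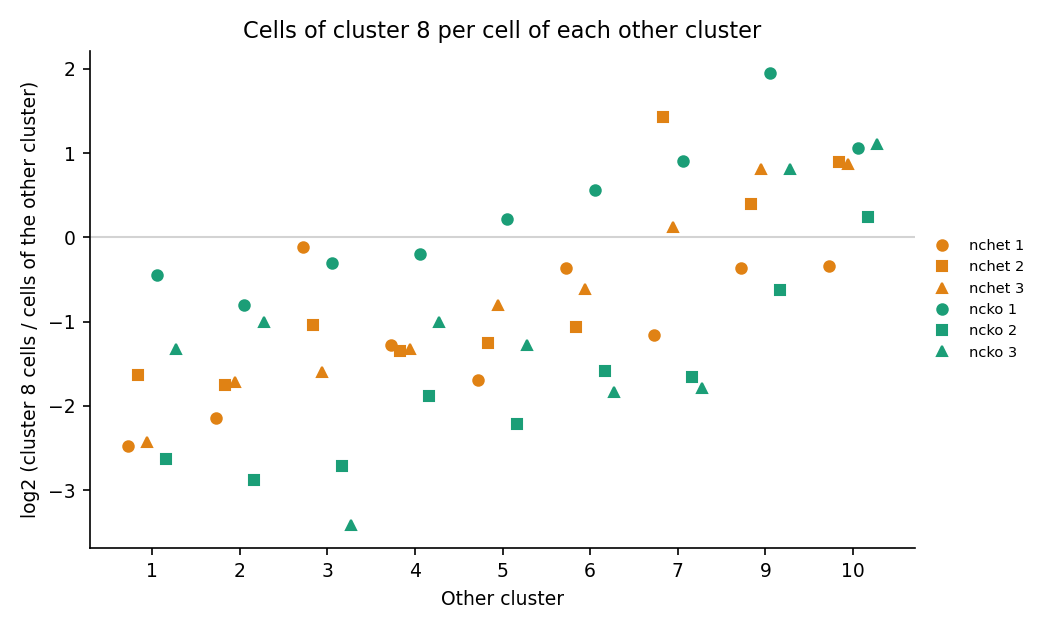
Cells of cluster 8 per cell of each other cluster (y axis, log2; x axis, number of the other cluster), where each point is an embryo (orange, control; green, knockout). The first knockout embryo (green circle) is highest for 6 of the 9 clusters, and the control points for cluster 4 lie within 0.394 to 0.413 cells of cluster 8 per cell.

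The next comparison was of the number of transcripts read per cell, summed over the panel. In the controls the median cluster 8 cell held 317.5, 585 and 653 transcripts, and in the knockouts 463, 579 and 526. The lowest and the highest median both belonged to controls, so the genotypes overlapped. The means of these medians were 519 ± 177 and 523 ± 58.1 transcripts, a difference of 4.17 (SD, n = 3 and 3, exact permutation p = 1). It was -96.3 without the first control and -24.0 without the second knockout embryo, and 18.6 with the shared labels as blocks. Of the 10 clusters present in all embryos, 10% had no overlap between the genotypes in this measure. Single cells spanned a wide range, from 67 to 756 transcripts in the first control embryo and from 67 to 1333 in the first knockout embryo. The other 4 embryos reached from 86 to 1487.

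Much of this spread between embryos was shared with the rest of the OFT. Cells outside cluster 8 held medians of 393, 764.5 and 616 transcripts in the controls and 528, 619 and 641 in the knockout embryos, so the first control had the fewest in both. The median of cluster 8 was 0.808, 0.765 and 1.06 times that of the rest in the controls and 0.877, 0.935 and 0.821 times in the knockout embryos. It thus lay below the rest in 5 of 6 embryos and above it in the third control. The clusters were formed on the same transcripts, so no test is given for cluster 8 against the rest. Between the genotypes the log2 ratio was -0.20 ± 0.25 and -0.19 ± 0.09 (SD, n = 3 and 3), a difference of 0.01 (exact permutation p = 0.9). By median transcripts, cluster 8 ranked seventh among clusters 1 to 10 in 5 embryos and higher only in the third control.

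**Figure D3:**
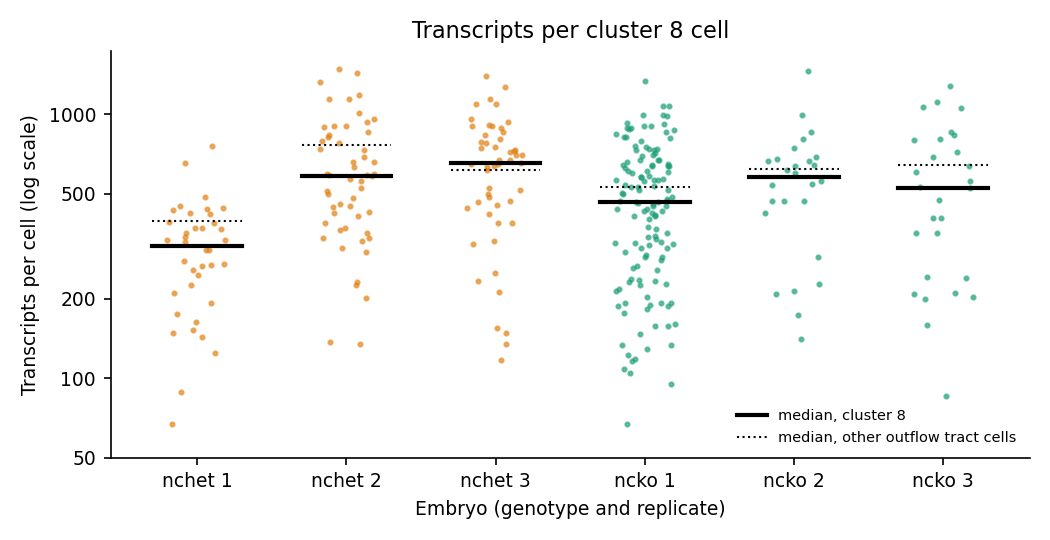
Transcripts per cluster 8 cell (y axis, log scale) in each embryo, with 1 point per cell, a solid line at the median of cluster 8 and a dotted line at the median of the other OFT cells. The solid line lies below the dotted line in all embryos but the third control, where the medians were 653 and 616.

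Cells with few transcripts were a minority of cluster 8. Cells under 200 transcripts numbered 42 of the 328, with 9, 2 and 4 in the controls and 22, 2 and 3 in the knockout embryos. As shares these were 23.7%, 3.70% and 7.84% in the controls and 16.8%, 7.69% and 10.7% in the knockout embryos, with means of 11.7% ± 10.5 and 11.7% ± 4.64 (SD, n = 3 and 3, exact permutation p = 1). Among the other OFT cells the same shares were 19.3%, 7.10% and 9.17% in the controls and 14.3%, 9.61% and 9.92% in the knockout embryos. The first control and the first knockout embryo were thus the highest in both sets of cells. Within cluster 8 the upper quartile of transcripts was 1.81, 2.12 and 1.83 times the lower quartile in the controls and 2.47, 1.55 and 3.32 times in the knockout embryos. The third knockout embryo, with 28 cells, had the widest spread and the second, with 26 cells, the narrowest (exact permutation p = 0.4, n = 3 and 3).

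The number of panel genes detected shows how widely the transcripts of a cell were spread over the panel. In the controls the median cluster 8 cell detected 79, 95.5 and 95 genes, and in the knockouts 88, 94 and 90.5. The first control was the lowest again, and the knockout embryos lay within the control range. The means were 89.8 ± 9.39 and 90.8 ± 3.01 genes (SD, n = 3 and 3), a difference of 1 gene (exact permutation p = 1). It was -4.42 without the first control and -0.583 without the second knockout embryo. None of the 10 clusters present in all embryos was without overlap in this measure (0%). By median genes, cluster 8 ranked 7, 6 and 6 from the top among clusters 1 to 10 in the controls. In the knockout embryos it ranked 6, 4 and 7.

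The number of genes follows the number of transcripts, so each cluster 8 cell was set against the OFT cells of other clusters in the same embryo that held within 10% of its transcripts. Of the 328 cells, 327 had at least 5 such cells. The median difference was 2, 4 and -2.25 genes in the controls and 3, 6 and 4 genes in the knockout embryos. Cluster 8 cells thus detected more genes than the pooled cells of other clusters at like depth in 5 of 6 embryos, and fewer in the third control. Cluster 8 was not matched to any single cluster in this way. In the third control 70% of the cluster 8 cells lay below the cells of like depth, against 15.4% to 39.5% in the other embryos. The means were 1.25 ± 3.19 and 4.33 ± 1.53 genes (SD, n = 3 and 3), a difference of 3.08 genes that was smaller than the spread among the controls (exact permutation p = 0.3). Without the third control it was 1.33 genes.

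**Figure D4:**
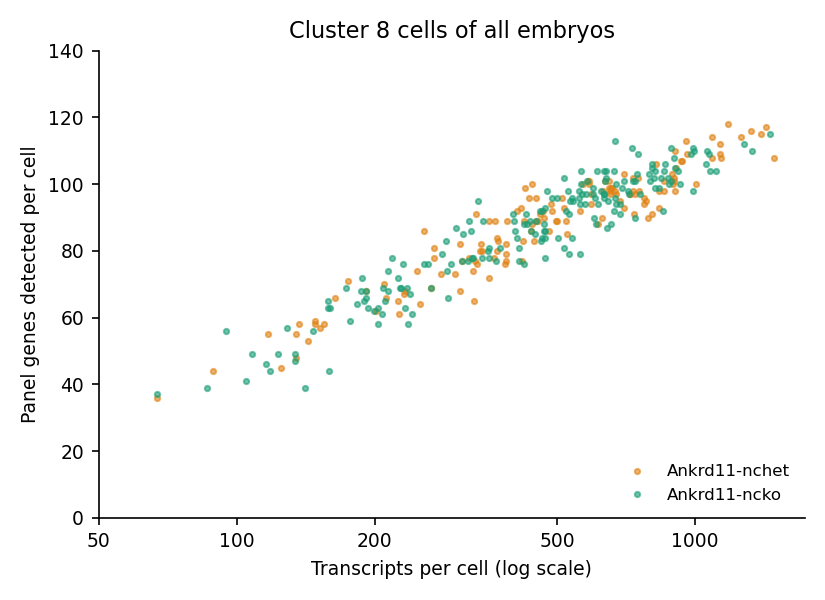
Panel genes detected (y axis) against transcripts (x axis, log scale) for the 328 cluster 8 cells of all embryos, orange for control and green for knockout. Genes rise with transcripts along a shared band, and the cells of both genotypes lie along it.

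Positions of cells are not used here, but the cell identifiers give a coarse grouping within a section. Identifiers have 19 digits, and the run from the ninth to the thirteenth digit divides a section into 56 to 104 blocks. The authors ran their image pipeline field by field and then joined the fields, but what these digits stand for is not given in the sources used here. The OFT cells of an embryo fell into only 3 or 4 of its blocks, 21 in all, and 18 of these held at least 10 OFT cells. This grouping was chosen after the data were seen and is given as a description, with no test.

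Cluster 8 was unevenly spread over these blocks in 5 of the 6 embryos. The first control had 2.82% and 5.95% in its larger blocks and 25.8% in the smallest, with 8 of 31 cells (95% Wilson interval 13.7% to 43.2%). In the second control the values were 3.32% and 6.07% in the larger blocks and 23.4% in the smallest, with 18 of 77 cells (15.3% to 34.0%). The third control had 6.59% in the largest block, 0.546% in the next and 18.9% in a block of 37 cells (9.48% to 34.2%). Its last block had 0 cluster 8 cells among 14, so by a limit of 3 counts the share there could be as high as 21.4%. In these embryos cluster 8 was thus densest in a block that held few of the OFT cells. This was not particular to cluster 8 in the first and the second controls, where the same blocks held 16 and 51 cells of cluster 1. The block of 37 cells in the third control held 0 of cluster 1.

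The third knockout embryo had the same pattern, with 2.76% of a block of 796 OFT cells and 35.3% of a block of 17, or 6 cells (17.3% to 58.7%). That block of 17 held 1 cell of cluster 1. The first knockout embryo differed, since its cluster 8 cells lay in 2 large blocks, at 6.68% of 778 cells and 15.6% of 508 cells. The latter block held 79 of its 131 cluster 8 cells, or 60.3%, and also 140 of its 179 cells of cluster 1. In the second knockout embryo the 4 blocks lay between 2.04% and 3.87%, with 5 to 7 cells of cluster 8 in each. In 4 of 6 embryos, then, the block richest in cluster 8 held under 8% of the OFT cells, and the exceptions were the first and the second knockout embryos.

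**Figure D5:**
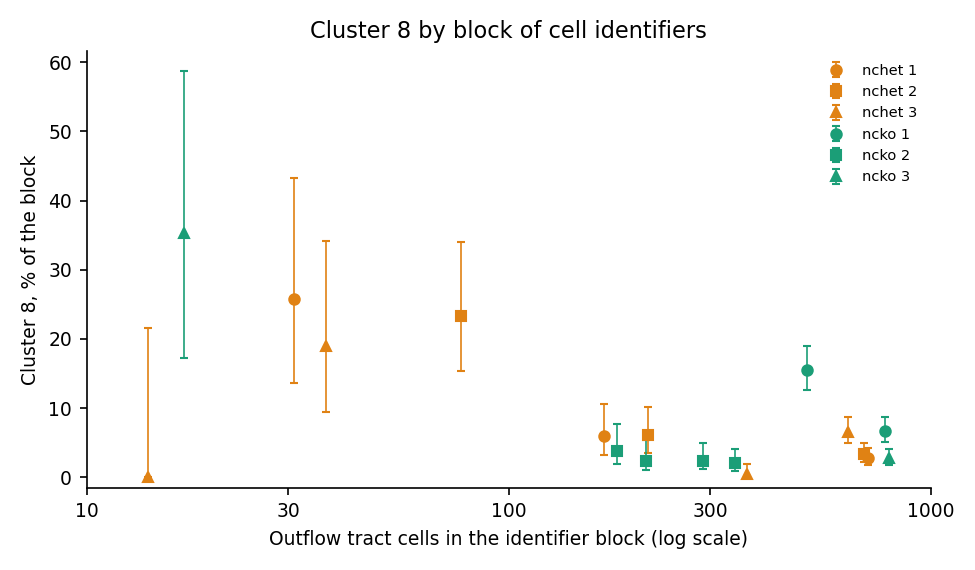
Share of the OFT cells of an identifier block that belong to cluster 8 (y axis, %, with 95% Wilson intervals) against the number of OFT cells in the block (x axis, log scale), for the 18 blocks with at least 10 OFT cells, orange for control and green for knockout. The 4 highest points, at 18.9% to 35.3%, are blocks of 17 to 77 OFT cells, and the first knockout embryo stands at 15.6% in a block of 508.

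Cells of cluster 8 shared their blocks with other clusters to a varying degree. The overlap of 2 clusters was taken as the sum over blocks of the smaller of their shares, so that clusters spread alike give 100%. Over the 6 embryos it averaged from 62.7% ± 21.1 with cluster 9 to 76.0% ± 13.7 with cluster 5 (SD, n = 6). No cluster had the highest overlap in more than 2 of 6 embryos. With 3 or 4 blocks an embryo, a single large block can fix much of this overlap. In the third knockout embryo 1 block held 97.8% of the OFT cells, and clusters 2, 3, 4, 9 and 10 all had an overlap of 78.6%. The measure therefore cannot tell whether 1 neighbour of cluster 8 stood apart from the others.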

How the data were processed

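MERFISH was run on 1 section from each of 3 control and 3 knockout embryos, and genotypes were taken from the sample labels. The authors used MERlin for decoding and Cellpose for segmentation, outlined the OFT manually and ran Leiden clustering in Seurat on cells pooled from the 6 outlines. For each segmented cell the deposited counts give transcripts and panel genes without normalization. Other deposited values, the embryo, the genotype, the mark for the outline and the cluster, were used as the authors gave them; no cell outside the outline has a cluster. Neither the clustering resolution nor the facility that handled each embryo was given in the sources used here.

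From these, shares, medians and ratios of cluster 8 were computed per embryo with scipy 1.17.1, numpy 2.4.6 and pandas 2.3.3 under Python 3.11.15, and drawn with matplotlib 3.10.9. The embryo was the replicate. Genotypes were compared by exact 2-sided permutation of the difference of means (threshold 0.05, not reachable here), tested on simulated data. The plan set Benjamini-Hochberg adjustment over clusters and named genes only as markers, target or panel genes of the retinoic acid pathway. Members and lists were chosen with earlier results of these data known. Alternatives were other denominators, cells with at least 50 or 200 transcripts, leaving out each embryo, subsets of embryos, means for medians and depth windows of 5% and 20%. Added after the data were seen were the share outside cluster 11, leaving out embryos for the ratios, Spearman's rho as an alternative, a fit with the shared title stem and the shared identifier start as blocks (genotypes permuted within blocks) and the identifier blocks.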

Additional observations from a re-analysis of the deposited data

How the results depend on the processing

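No comparison of the genotypes passed 0.05 under any alternative, which the design does not allow. The share difference stayed positive under each other denominator, at 0.569 percentage points outside cluster 10 to 2.09 outside clusters 2, 3 and 7 among OFT cells, and under each minimum of transcripts. All of these values include the first knockout embryo. Subsets of embryos were those of title stem AH59 (2 controls and the second knockout embryo), the third embryos of both genotypes, whose identifiers begin with the same 7 digits, and the 4 embryos outside that pair. In that order the share differed by -2.30, -1.40 and 1.50 points, cell numbers by -20.0, -23.0 and 32.5, median transcripts by 128, -127 and 69.8, panel genes by 6.75, -4.50 and 3.75, panel genes at matched depth by 3.00, 6.25 and 1.50, and the log2 transcript ratio to the rest by 0.25, -0.37 and 0.20.

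With AH59 and the third embryos as blocks (5 embryos, without the first knockout), these differences were -1.91, -21.3, 18.6, 1.93, 4.39 and -0.0151. The blocked log2 cell ratios were 0.15 (cluster 1), -0.22 (2), -2.01 (3), -0.19 (4), -0.63 (5), -1.02 (6), -1.84 (7), -0.37 (9) and 0.0814 (10), and the smallest p that blocks allow is 0.167.

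With 1 embryo left out the share gave -1.85 to 1.95 and cell numbers -20.7 to 31.8, negative only without the first knockout embryo. Median transcripts gave -96.3 to 71.4, panel genes -4.42 to 3.83, panel genes at matched depth 1.33 to 4.46 and the transcript ratio -0.0786 to 0.16 (-0.0102 with means over cells). Log2 cell ratios ranged over 0.21 to 1.3 (cluster 1), -0.0661 to 0.97 (2), -2.15 to -0.60 (3), -0.13 to 0.72 (4), -0.50 to 0.72 (5), -1.03 to 0.17 (6), -1.85 to -0.33 (7), -0.19 to 1.09 (9) and -0.0796 to 0.61 (10). The correlation with depth changed sign with Spearman's rho, 0.0286. The cause was not tested for any of these changes. The labels number no pairs of control and knockout embryos, so the blocks rest on the shared labels alone, and what those stand for is not given in the sources used here.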
